A study of Mus musculus with 10 samples.

Results

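The comparison set retina of mice with oxygen-induced retinopathy (OIR) that had received phosphate-buffered saline (PBS) in the vitreous against retina of mice with OIR that had not been injected. It rests on 4 of the 10 arrays of the study, 2 of each group, and on the 30604 of 65956 transcript clusters that carry 1 gene symbol, which gave 30063 genes, of which 23255 were bright enough to be tested. Arrays were taken by their titles. All mice were of the strain C57BL/6JJmsSlc, and all groups compared here were taken at postnatal day 17. Both OIR groups had breathed 75% oxygen for 5 days from postnatal day 7 and were then kept in air. The PBS group was injected immediately after the oxygen ended. The other groups of the study were OIR mice injected with the inhibitor ISOX DUAL, untreated mice at day 17 and untreated mice at day 7, with 2 arrays each. The study looked for genes raised in OIR that return with ISOX DUAL, and the PBS group received an injection without the inhibitor. Whether both arrays of a group are separate animals, eyes or pools is not stated in the labels, and the p-values therefore cover only array-to-array spread, which could be technical. The labels also give no litter or batch. The injection therefore cannot be told apart from other differences between injected and uninjected mice.

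In OIR, high oxygen stops and prunes the growing retinal vessels of the pup, and the poorly perfused retina becomes hypoxic when the mice return to air. Hypoxia stabilises hypoxia-inducible factor (HIF), which switches on genes of oxygen sensing, glycolysis and vessel growth, and new vessels sprout toward the vitreous behind endothelial tip cells. Müller cells, the radial glia of the retina, become reactive in this setting. A needle passed into the vitreous is itself a small injury, which is known to induce glial and neurotrophic genes, and it can touch the lens.

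Values are log2 signals as the authors deposited them, so a difference of 1 is a 2-fold change. Differences are PBS minus uninjected OIR with the standard error (SE) of a limma fit over all 10 arrays, n = 2 arrays per group throughout, and adjusted p-values run over all 23255 genes. The share of transcript clusters brighter than the 95th percentile of the negative control probes was 8.00% to 9.97% over the 10 arrays. PBS array 1 had the lowest share and the highest negative control median of all arrays. The share was 9.12% on PBS array 2, and 9.53% and 8.70% on the uninjected OIR arrays. Negative control medians were 6.11 and 5.99 on the PBS arrays and 5.88 and 5.98 on the uninjected OIR arrays. Rod photoreceptor genes averaged 11.01 and 11.07 on the PBS arrays and 11.11 and 10.96 on the uninjected OIR arrays, far above those medians. Both arrays of the PBS group differed from each other with an SD of 0.223 log2 over genes, and both uninjected OIR arrays with an SD of 0.325. The mean of 62 small nucleolar RNA genes, short RNAs whose signal can depend on how small RNA is recovered, was 9.19 and 8.49 on the PBS arrays and 7.78 and 8.36 on the uninjected OIR arrays. Its part in the results below was not tested.

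No gene passed the threshold of adjusted p under 0.05 between PBS-injected and uninjected OIR (0 of 23255, 0%). The smallest limma adjusted p was 0.088, shared by Angpt2 and Spidr. At an unadjusted p under 0.05 there were 997 genes (4.29% of those tested), where 5% would be 1163. Of these, 589 were lower (2.53%) and 408 were higher (1.75%) with PBS. All 25 genes with an adjusted p under 0.20 were lower with PBS (0.108% of the genes tested). Among protein-coding genes 487 were lower and 205 higher at an unadjusted p under 0.05, of 15743 tested.

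Over all genes the differences centred near 0, with a median of 0.01 and 90% of them between -0.35 and 0.33. Differences were negative for 47.5% of genes and positive for 52.5%. Both PBS arrays lay below both uninjected OIR arrays for 15.3% of genes, and above both for 20.9%. A total of 37 genes, 27 of them protein-coding, were over 1 log2 lower with PBS. A total of 59 genes were over 1 log2 higher, of which 9 were protein-coding and 15 were small nucleolar RNA genes. The median half-width of the 95% interval of a difference was 0.312 log2, so smaller differences of most genes were not resolvable with 2 arrays per group. Because whole retina was used, fewer cells of a type and less RNA per cell cannot be told apart in any of the groups below.

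**Figure D1:**
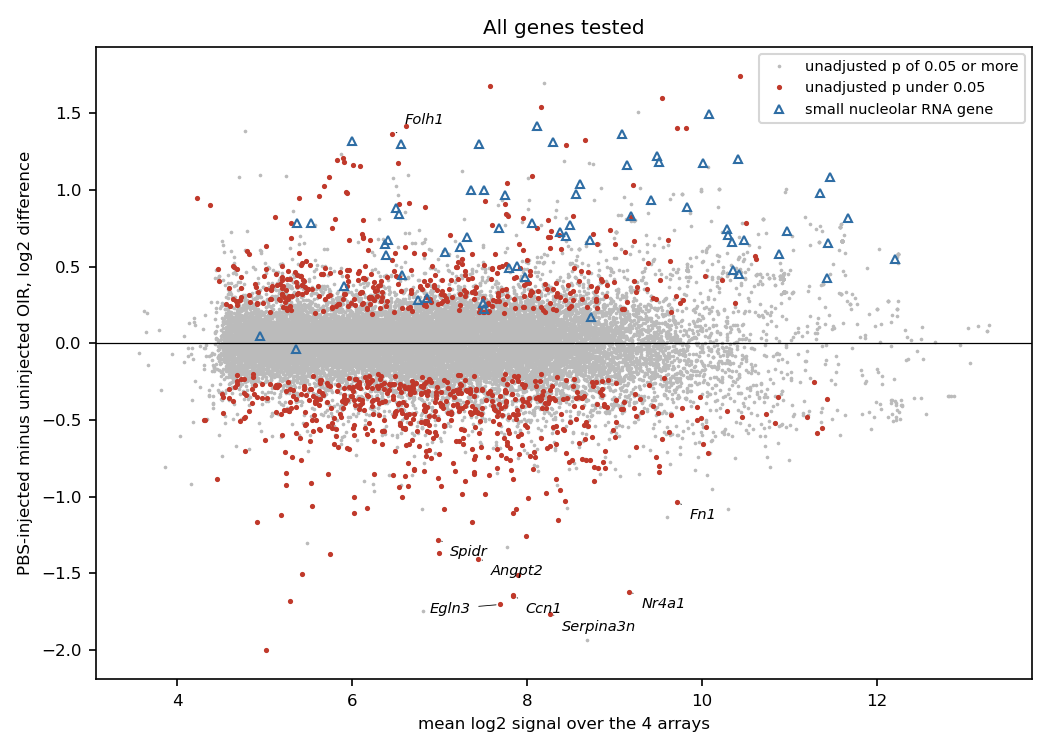
PBS minus uninjected OIR difference (log2, vertical axis) against the mean log2 signal over the 4 arrays (horizontal axis), 1 point per gene for the 23255 genes tested, with small nucleolar RNA genes as triangles. Labelled genes below 0 include Angpt2 at -1.41 and Serpina3n at -1.77, Folh1 lies at 1.36, and 61 of 62 small nucleolar RNA genes lie above 0.

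Genes of oxygen sensing by the HIF pathway had lower signal with PBS than without injection. Egln1 and Egln3 encode prolyl hydroxylases that mark HIF for destruction and are HIF targets themselves, and Adm encodes adrenomedullin, a hypoxia-induced vasoactive peptide. The promoters of these 3 genes are shown as examples. All 3 had lower signal with PBS and have an entry in the promoter table, and other genes with an entry are not shown. Each line gives the 250 bases before the RefSeq start (GRCm38.p6), 5′ to 3′ on the gene's strand, with every match to the core hypoxia response motif in capitals, ACGTG or GCGTG on the strand shown or CACGT or CACGC for the other strand.
Egln1: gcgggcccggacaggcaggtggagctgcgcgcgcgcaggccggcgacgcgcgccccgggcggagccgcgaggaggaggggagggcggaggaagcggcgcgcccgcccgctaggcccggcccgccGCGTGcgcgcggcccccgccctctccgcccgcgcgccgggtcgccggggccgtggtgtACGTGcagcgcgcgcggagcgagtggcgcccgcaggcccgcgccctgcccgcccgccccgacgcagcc
Egln3: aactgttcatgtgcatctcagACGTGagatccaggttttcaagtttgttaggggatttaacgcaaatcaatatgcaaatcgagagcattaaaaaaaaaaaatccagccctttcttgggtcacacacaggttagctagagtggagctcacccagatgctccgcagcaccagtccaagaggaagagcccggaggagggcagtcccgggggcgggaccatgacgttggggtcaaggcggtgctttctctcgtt
Adm: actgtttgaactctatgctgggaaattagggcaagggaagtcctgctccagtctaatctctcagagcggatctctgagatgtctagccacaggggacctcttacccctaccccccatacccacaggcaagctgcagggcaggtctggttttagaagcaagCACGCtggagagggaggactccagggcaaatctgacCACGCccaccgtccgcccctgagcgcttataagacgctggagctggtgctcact
The windows are chr8:124949255-124949504 on the minus strand for Egln1, chr12:54203875-54204124 on the minus strand for Egln3, and chr7:110627407-110627656 on the plus strand for Adm. Egln1 has 2 matches, which begin 126 and 68 bases before the start. Egln3 has 1 match at 229 bases, and Adm has 2 matches at 90 and 54 bases, both on the other strand. Among HIF target genes 21 of the 22 with a promoter entry hold the motif, against 53.3% of tested genes with a promoter. Counted by promoter and not by gene, 38.6% of all 32851 promoters of this length hold it. The list was made of genes known as HIF targets, so its high share follows from that choice. It says nothing about the difference with PBS. A match of 5 letters is a description of the sequence and not a binding site.

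Egln3 had the largest difference of the HIF targets. Its signal was 7.02 and 6.66 on the PBS arrays, against 8.78 and 8.31 on the uninjected OIR arrays. The difference was -1.70 ± 0.23 (3.26-fold lower, limma adjusted p = 0.186). Egln1 stood at 9.10 and 9.11 with PBS, against 9.92 and 9.77 without injection (-0.74 ± 0.09, 1.67-fold lower, adjusted p = 0.186). The groups of both genes did not overlap, and the arrays within a group lay closer to each other than the groups did. Bnip3, a mitophagy receptor, was at 8.98 and 8.84 with PBS and 9.62 and 9.56 in uninjected OIR (-0.68 ± 0.14, adjusted p = 0.384). Pdk1, the kinase that turns pyruvate away from mitochondria, differed by -0.59 ± 0.13, and Ero1a, an oxidase for protein disulfide bonds, by -0.63 ± 0.16. Ndufa4l2, a mitochondrial protein induced by hypoxia, differed by -0.96 ± 0.31, with uninjected OIR array 1 at 9.35 and array 2 at 8.37. Epo, encoding erythropoietin, was at 6.10 and 6.05 with PBS and 6.82 and 6.27 without injection, with PBS array 1 just under its negative control median of 6.11.

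Of 26 HIF targets, all tested, 23 had a negative difference, with a median of -0.34. In this list 11 genes were lower at an unadjusted p under 0.05 and 0 were higher, against 2.53% lower and 1.75% higher of all genes, and 18 lay lower without overlap, against 15.3% of all genes. The median was -0.20 without uninjected OIR array 1 and between -0.27 and -0.40 without any of the other 3 arrays. The same targets stood a median of 0.32 above untreated day 17 retina with PBS and 0.67 above it in uninjected OIR. With PBS, Egln1 and Egln3 were 0.21 ± 0.09 and 0.78 ± 0.23 above untreated retina, which did not pass (adjusted p of 0.544 and 0.537). In uninjected OIR they rose relative to untreated retina (0.96 ± 0.09, adjusted p = 0.0129, and 2.49 ± 0.23, adjusted p = 0.00973), a comparison that shares the uninjected OIR arrays.

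Glycolysis and glucose or lactate transport genes had smaller differences. Of 18 tested, 17 were negative, with a median of -0.32. In this list 6 were lower and 0 higher at an unadjusted p under 0.05, against 2.53% and 1.75% of all genes. Hk2, the hexokinase that starts glycolysis in photoreceptors, was at 8.46 and 8.08 with PBS, against 8.81 and 9.02 in uninjected OIR (-0.65 ± 0.16, adjusted p = 0.68). Pfkp, a phosphofructokinase subunit, was at 10.69 and 10.47 with PBS, against 11.09 and 11.10 (-0.52 ± 0.13, adjusted p = 0.7) in uninjected OIR. Pgk1, phosphoglycerate kinase, differed by -0.55 ± 0.15. For Slc2a1, the main glucose transporter of the retina, the difference was -0.40 with an SE of 0.26. The median of the list lay between -0.40 and -0.30 with any of the 4 arrays left out.

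Genes of endothelial tip cells, the leading cells of a vessel sprout, had the gene of smallest p in the comparison. Angpt2 encodes angiopoietin 2, which loosens vessel walls through the receptor Tie2. Its signal was 6.88 and 6.60 on the PBS arrays and 8.22 and 8.07 on the uninjected OIR arrays. The groups were far apart relative to the spread within them. The difference was -1.41 ± 0.13 (95% interval -1.70 to -1.11, 2.65-fold lower, limma adjusted p = 0.088). It passed at an adjusted p of 0.0491 after quantile normalization and 0.0338 over protein-coding genes. For the mean of both injected groups, which takes in the ISOX DUAL arrays, it passed at 0.0218. It did not pass with array weights (0.0835), with each array centred on its median (0.177) or with only the 4 arrays compared (0.678). With 1 of these 4 arrays left out, the difference ran from -1.54 to -1.27.

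Apln, encoding the vessel-guiding peptide apelin, was at 6.72 and 6.31 with PBS, against 7.46 and 7.73 in uninjected OIR (-1.08 ± 0.19, 2.11-fold lower, adjusted p = 0.262). Adm was at 7.51 and 7.21 with PBS, against 8.87 and 8.36 (-1.25 ± 0.19, 2.39-fold lower, adjusted p = 0.186) in uninjected OIR. Esm1, a proteoglycan gene used as a tip cell marker, was at 5.75 and 5.52 with PBS, below the negative control medians of these arrays, against 6.88 and 6.53 in uninjected OIR. Its difference of -1.07 ± 0.19 is therefore no exact size, and no fold is given. Dll4, the Notch ligand of tip cells, differed by -0.34 ± 0.11.

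Of 22 tip cell genes, all tested, 21 were negative (median -0.41), 13 were lower and 0 higher at an unadjusted p under 0.05, and 20 lay lower without overlap. Of all genes 2.53% were lower, 1.75% higher and 15.3% lower without overlap. The exception in sign was Kdr, the main VEGF receptor, at 9.93 and 10.06 with PBS and 9.76 and 9.99 in uninjected OIR, groups that overlap. The list stood a median of 0.34 above untreated day 17 retina with PBS and 0.65 above it in uninjected OIR.

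General endothelial genes did not share one direction. Of 21 tested, 13 were negative and 8 positive (median -0.10). At an unadjusted p under 0.05, 4 were lower and 4 higher, against 2.53% and 1.75% of all genes. Eng, a co-receptor for transforming growth factor β raised in dividing endothelium, was at 7.57 and 7.12 with PBS, against 8.17 and 7.97 in uninjected OIR (-0.73 ± 0.16, adjusted p = 0.517). Robo4, an endothelial guidance receptor, differed by -0.48 ± 0.10. On the other side of 0, Tek encodes Tie2, the receptor for angiopoietin 2, and was at 6.31 and 6.38 with PBS, against 5.99 and 5.84 in uninjected OIR (0.43 ± 0.12, adjusted p = 0.83). Aplnr, the apelin receptor, was at 7.30 and 7.57 with PBS and 6.73 and 7.14 without injection (0.50 ± 0.18). Cldn5, a tight junction gene, and Mfsd2a, a lipid transporter that limits transcytosis, were higher by 0.52 ± 0.17 and 0.36 ± 0.10. Cdh5, the junctional cadherin of all endothelium, differed by -0.40 ± 0.22.

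**Figure D2:**
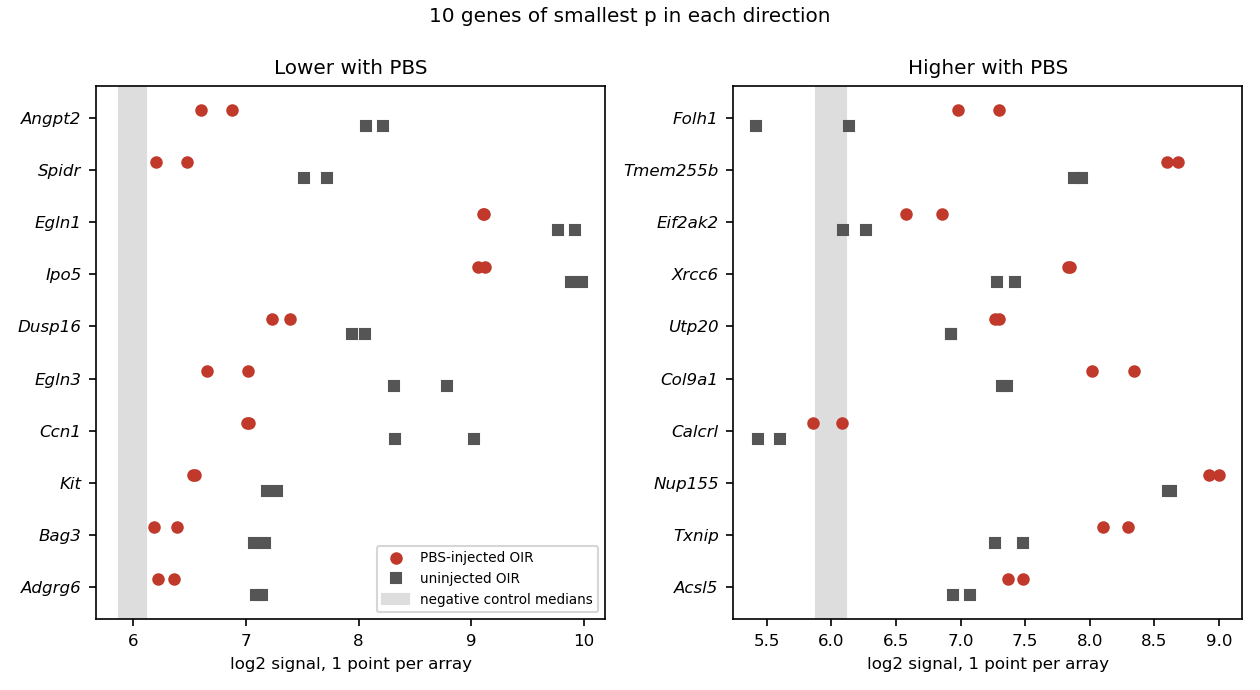
Log2 signal (horizontal axis) of the 10 genes of smallest p in each direction whose groups do not overlap, with 1 circle per PBS array and 1 square per uninjected OIR array, and the range of the negative control medians shaded. None of the 20 passed the threshold; Egln1 shows 9.10 and 9.11 with PBS beside 9.92 and 9.77 without injection, and Calcrl lies in or below the shaded range.

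Vegfa, which encodes the chief growth factor released by hypoxic retina, had a small difference. It was at 9.84 and 9.64 with PBS and 9.94 and 9.91 in uninjected OIR, a difference of -0.19 ± 0.12 (95% interval -0.46 to 0.09, limma adjusted p = 0.966). With PBS it stood 0.89 ± 0.12 above untreated retina (adjusted p = 0.27), and in uninjected OIR it rose by 1.08 ± 0.12 (adjusted p = 0.0176). All 4 of these OIR arrays lay above the untreated arrays, which read 8.81 and 8.88.

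Other vessel growth factors showed larger differences. Ccn1, a matricellular protein gene of sprouting vessels, was at 7.01 and 7.03 with PBS, against 9.02 and 8.32 in uninjected OIR (-1.65 ± 0.23, 3.14-fold lower, adjusted p = 0.186). Edn1, encoding the vasoconstrictor endothelin 1, was at 6.17 and 5.97 with PBS, against 7.27 and 6.74 (-0.94 ± 0.18, adjusted p = 0.333) in uninjected OIR. Pgf, placental growth factor, differed by -0.68 ± 0.11 and lay below the negative control medians on both PBS arrays (5.52 and 5.47). Thbs1, thrombospondin 1, an inhibitor of vessel growth, was also lower with PBS, by -0.83 ± 0.16, so members of opposite known action lay on the same side of 0. Fgf2 was at 8.45 and 7.72 with PBS and 8.77 and 8.83 without injection. Of 20 growth factor genes, 18 were negative (median -0.27), 8 were lower and 0 higher at an unadjusted p under 0.05, against 2.53% and 1.75% of all genes. The median was -0.15 without uninjected OIR array 1 and -0.41 without array 2.

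Among matrix genes, Fn1, encoding fibronectin, was at 9.43 and 8.96 with PBS, against 10.23 and 10.24 in uninjected OIR (-1.04 ± 0.15, 2.05-fold lower, adjusted p = 0.186). Nid1 and Lamb1, basement membrane genes, differed by -0.66 ± 0.17 and -0.38 ± 0.12. The 21 matrix genes tested had a median of -0.07. At an unadjusted p under 0.05, 4 were lower and 0 higher, against 2.53% and 1.75% of all genes. All 15 pericyte and smooth muscle genes were negative (median -0.19), against 47.5% of all genes, with 3 lower and 0 higher at an unadjusted p under 0.05 and 9 lower without overlap, against 2.53%, 1.75% and 15.3% of all genes. Abcc9, a potassium channel subunit of pericytes, differed by -0.42 ± 0.12 and Rgs5, a pericyte marker, by -0.35 ± 0.17. Acta2, smooth muscle actin, was at 7.65 and 6.93 with PBS and 9.05 and 7.75 in uninjected OIR. Its difference of -1.11 ± 0.40 ranged from -1.76 to -0.46 when 1 of the 4 arrays was left out. Tagln, another contractile gene, differed by -0.56 ± 0.19, or -0.87 to -0.25 with 1 array left out, and was dimmer than the negative controls on both PBS arrays.

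Reactive Müller glia genes had the most negative median of the 28 lists, -0.63 over 22 tested genes, of which 20 were negative. In this list 14 genes were lower and 1 was higher at an unadjusted p under 0.05, and 18 lay lower without overlap, against 2.53%, 1.75% and 15.3% of all genes. Serpina3n, an acute-phase protease inhibitor of reactive glia, was at 7.38 and 7.36 with PBS, against 9.61 and 8.67 in uninjected OIR (-1.77 ± 0.35, 3.4-fold lower, limma adjusted p = 0.361). The PBS arrays were nearly equal and the uninjected OIR arrays lay further apart, without overlap. Cebpd, a transcription factor of the acute-phase response, was at 6.33 and 6.30 with PBS, against 7.64 and 7.71 (-1.37 ± 0.20, 2.58-fold lower, adjusted p = 0.186) in uninjected OIR. Hmox1, heme oxygenase 1, was at 6.86 and 7.19 with PBS, against 8.41 and 8.92 (-1.64 ± 0.26, 3.12-fold lower, adjusted p = 0.217) in uninjected OIR.

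Osmr, the oncostatin M receptor, was at 7.42 and 7.24 with PBS and 8.67 and 8.15 in uninjected OIR (-1.08 ± 0.23). Stat3, the transcription factor downstream of it, was at 8.68 and 8.28 with PBS and 9.21 and 9.38 without injection (-0.81 ± 0.15). A2m and Cd44, a protease inhibitor and a hyaluronan receptor of reactive glia, differed by -0.98 ± 0.17 and -0.88 ± 0.14. Gfap, the intermediate filament gene that marks reactive Müller cells, was at 7.72 and 8.05 with PBS, against 8.49 and 8.65 in uninjected OIR (-0.68 ± 0.18, 1.6-fold lower, adjusted p = 0.707). Edn2, an endothelin that stressed photoreceptors release, was at 7.00 and 6.94 with PBS and 7.61 and 7.43 without injection (-0.56 ± 0.11). Il33, a nuclear alarmin of Müller cells, was the member that lay higher at an unadjusted p under 0.05, at 7.77 and 8.08 with PBS and 7.56 and 7.12 in uninjected OIR (0.58 ± 0.19).

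The glial genes had higher values with PBS than in untreated retina. Gfap was 1.71 ± 0.18 above untreated retina with PBS (adjusted p = 0.116) and 2.39 ± 0.18 above it in uninjected OIR, a rise that passed (adjusted p = 0.00526). Serpina3n stood 1.27 ± 0.35 above untreated retina with PBS (adjusted p = 0.537) and 3.04 ± 0.35 above it in uninjected OIR (adjusted p = 0.0191). With ISOX DUAL, Serpina3n was at 8.33 and 9.25, and Gfap at 8.18 and 8.67, values that lie above both PBS arrays for each gene. The list median was 0.46 above untreated retina with PBS and 0.99 above it in uninjected OIR.

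Homeostatic Müller glia genes, which serve potassium and glutamate uptake and the visual cycle, had a positive median of 0.21, with 13 of 18 tested genes positive. It was 0.13 without PBS array 2 and 0.31 without PBS array 1. At an unadjusted p under 0.05, 4 were higher and 1 lower, against 1.75% and 2.53% of all genes. In this list 9 lay higher without overlap, against 20.9% of all genes. Col9a1, a collagen IX chain, was at 8.02 and 8.34 with PBS, against 7.36 and 7.32 in uninjected OIR (0.84 ± 0.22, 1.79-fold higher, adjusted p = 0.707). Abca8a, a lipid transporter, and Spc25, a kinetochore gene found in mouse Müller cells, differed by 0.39 ± 0.12 and 0.41 ± 0.14. Kcnj10 and Aqp4, the potassium and water channels of Müller endfeet, differed by 0.24 ± 0.12 and 0.26 ± 0.12. Sox9, a transcription factor gene of Müller cells, went against the list, at 7.66 and 7.68 with PBS, against 8.37 and 8.44 in uninjected OIR (-0.73 ± 0.11, adjusted p = 0.187).

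Immediate-early genes, which cells switch on within minutes of a stimulus, had a median of -0.43, with 20 of 22 tested genes negative, 11 lower and 0 higher at an unadjusted p under 0.05, against 2.53% lower and 1.75% higher of all genes. Fos, a subunit of the AP-1 transcription factor, was at 7.03 and 7.26 with PBS, against 9.00 and 8.31 in uninjected OIR (-1.51 ± 0.23, 2.85-fold lower, limma adjusted p = 0.193). Nr4a1, an orphan nuclear receptor gene, was at 8.48 and 8.22 with PBS, against 9.80 and 10.14 (-1.62 ± 0.27, 3.07-fold lower, adjusted p = 0.245) in uninjected OIR. Atf3, a stress-induced transcription factor also known from axon injury, was at 6.37 and 6.45 with PBS and 7.18 and 7.31 without injection (-0.83 ± 0.13, adjusted p = 0.193). Egr1 was at 7.76 and 7.79 with PBS and 9.07 and 8.79 in uninjected OIR, and untreated retina held 8.34 and 9.04. For Fos and Egr1 both PBS arrays thus lay below both untreated arrays, which read 7.35 and 7.66 for Fos.

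Neurotrophic and nerve injury genes, the group known to respond to a needle in the eye, had a median of -0.15 with 16 of 19 tested genes negative. Il6st, the shared receptor of the interleukin 6 family, was at 9.17 and 9.01 with PBS and 9.55 and 9.53 in uninjected OIR (-0.45 ± 0.12). Sox11, a transcription factor of axon regrowth, differed by -0.27 ± 0.10. No member of the list was higher with PBS at an unadjusted p under 0.05, and 4 were lower, against 1.75% and 2.53% of all genes. Mt1, a metallothionein, had the widest difference, -1.13 ± 0.80. It was at 8.81 and 9.26 with PBS and 11.22 and 9.12 in uninjected OIR, and the groups overlap. Stress response genes had a median of -0.17, with 17 of 18 tested genes negative, against 47.5% of all genes. This list shares Hmox1 with the reactive Müller glia list. Hspa5, the chaperone of the endoplasmic reticulum, was at 8.68 and 8.73 with PBS and 9.31 and 9.32 without injection (-0.61 ± 0.16), and Xbp1, its transcription factor, differed by -0.74 ± 0.23.

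**Figure D3:**
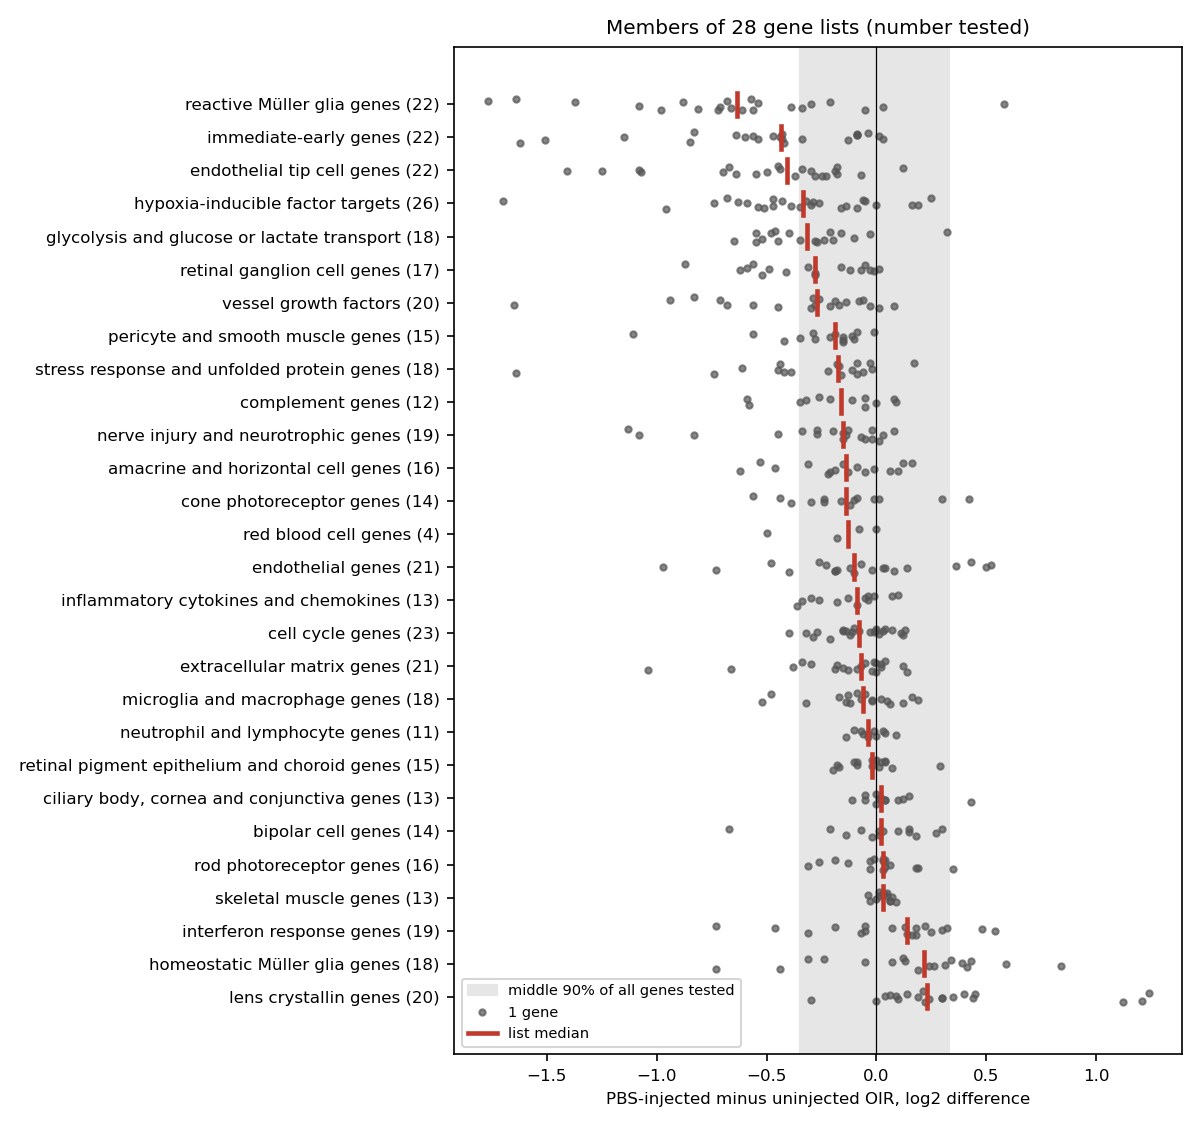
PBS minus uninjected OIR difference (log2, horizontal axis) of every tested member of the 28 gene lists, 1 point per gene, with list medians as bars and the middle 90% of all genes (-0.35 to 0.33) shaded. Medians run from -0.63 for reactive Müller glia genes to 0.23 for lens crystallin genes.

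Further genes of smallest p came from other functions. Spidr, a scaffold of DNA repair by recombination, was at 6.48 and 6.20 with PBS, against 7.72 and 7.52 in uninjected OIR (-1.28 ± 0.12, 95% interval -1.56 to -1.0, 2.43-fold lower, limma adjusted p = 0.088). Like Angpt2, Spidr passed after quantile normalization (adjusted p = 0.0491), over protein-coding genes (0.0338) and for the mean of both injected groups (0.0431). Spidr did not pass with array weights (0.0835), with each array centred on its median (0.179) or with only the 4 arrays compared (0.717). Ipo5, a nuclear import receptor, was at 9.12 and 9.06 with PBS, against 9.98 and 9.88 (-0.84 ± 0.11, adjusted p = 0.186) in uninjected OIR. Dusp16, a phosphatase of stress kinases, was at 7.39 and 7.23 with PBS, against 7.94 and 8.06 (-0.69 ± 0.09, adjusted p = 0.186) in uninjected OIR. Kit, the stem cell factor receptor, differed by -0.70 ± 0.10, Bag3, a co-chaperone, by -0.82 ± 0.12, and Adgrg6, an adhesion receptor, by -0.82 ± 0.12, each with an adjusted p of 0.186.

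Among genes higher with PBS, Folh1 had the smallest p. It encodes a carboxypeptidase that releases glutamate from a neuropeptide, and its signal was 7.30 and 6.98 with PBS, against 6.14 and 5.42 in uninjected OIR (1.36 ± 0.25, 2.57-fold higher, limma adjusted p = 0.312). One of the uninjected OIR arrays lay below its negative control median, so the fold is rough. Untreated retina held 7.44 and 7.79, and the fall of Folh1 in uninjected OIR relative to it passed (-1.84 ± 0.25, adjusted p = 0.0306).

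The other genes of smallest p on this side had higher values with PBS than untreated retina had, on average. Txnip, an arrestin-like regulator of glucose uptake, was at 8.30 and 8.10 with PBS and 7.48 and 7.27 in uninjected OIR (0.83 ± 0.22), with 7.19 and 7.06 in untreated retina. Tmem255b, a membrane protein gene, was at 8.68 and 8.60 with PBS and 7.94 and 7.88 without injection (0.73 ± 0.15). Xrcc6, the Ku70 subunit of DNA end joining, differed by 0.49 ± 0.12, and Acsl5, a fatty acid activating enzyme, by 0.42 ± 0.11. Utp20, a ribosome assembly factor, and Nup155, a nuclear pore protein, differed by 0.35 ± 0.09 and 0.34 ± 0.09. Calcrl, a receptor subunit for adrenomedullin, differed by 0.46 ± 0.12, from uninjected OIR values of 5.60 and 5.43 below the negative control medians. The smallest adjusted p among these 7 genes was 0.427, that of Tmem255b.

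**Figure D4:**
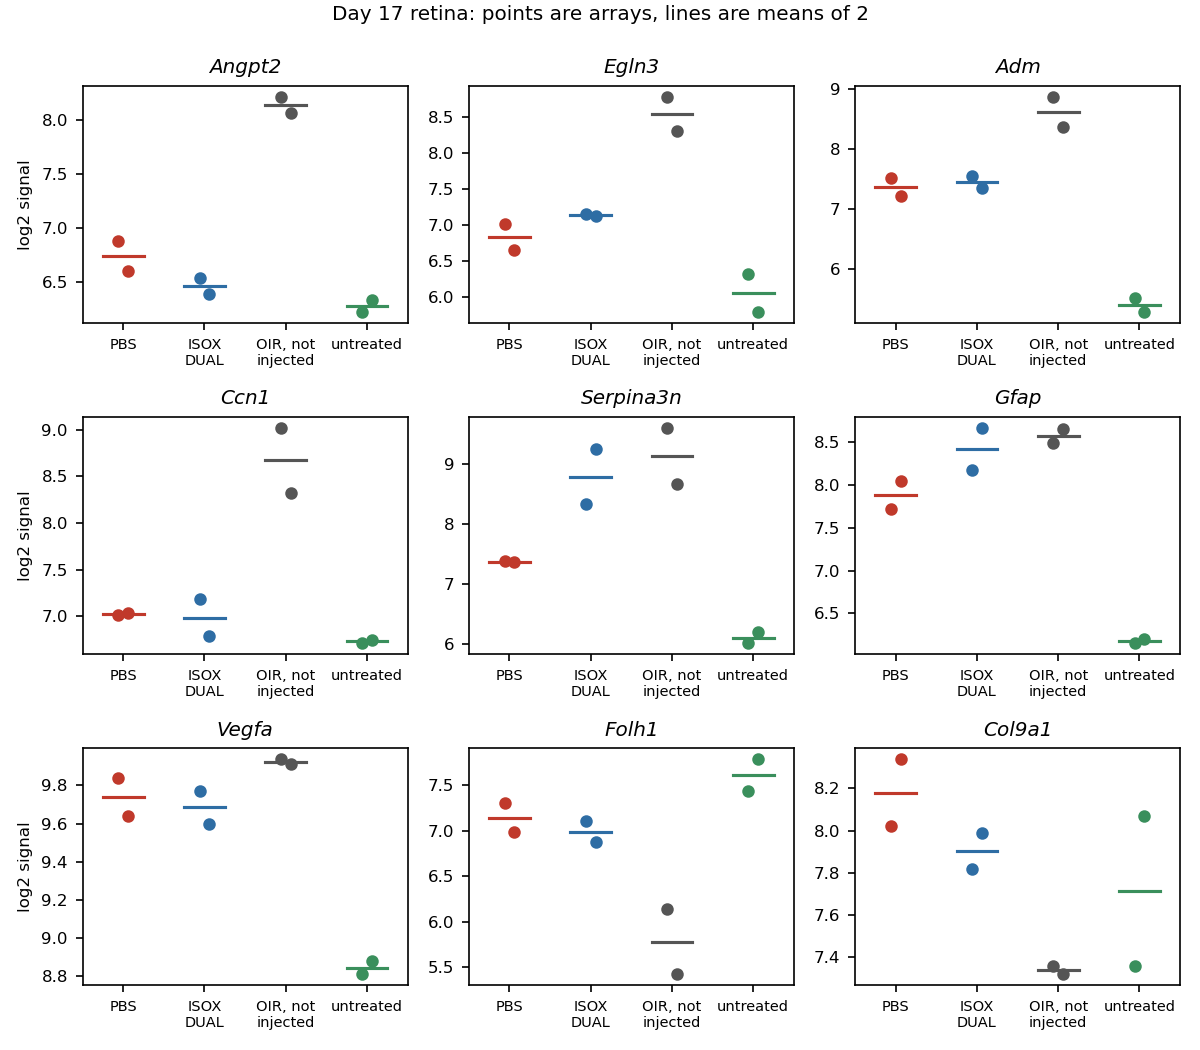
Log2 signal (vertical axes, which do not start at 0) of 9 genes in the 4 day 17 groups, with 1 point per array and a line at the mean of 2 arrays. Angpt2 with PBS (6.88 and 6.60) lies near ISOX DUAL (6.54 and 6.39), Serpina3n is lower with PBS (7.38 and 7.36) than with ISOX DUAL (8.33 and 9.25), and Vegfa in all 3 OIR groups lies above untreated retina.

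The differences from uninjected OIR with PBS and with ISOX DUAL are given side by side, since they share the uninjected OIR arrays and are not independent. Angpt2 was at -1.41 with PBS and -1.68 with ISOX DUAL, Spidr at -1.28 and -1.16, and Egln3 at -1.70 and -1.40. Ccn1 was at -1.65 with PBS and -1.68 with ISOX DUAL, and Folh1 at 1.36 and 1.21. Hmox1 was at -1.64 with PBS and -1.44 with ISOX DUAL, and Fos at -1.51 and -1.57. Other values lay further apart. Reactive Müller glia genes had a median of -0.63 with PBS and -0.29 with ISOX DUAL, and lens genes of 0.23 and 0.95. Serpina3n and Gfap, as given above, were higher on both ISOX DUAL arrays than on both PBS arrays. ISOX DUAL against uninjected OIR called 1 gene (0.0043%), and ISOX DUAL against PBS called 0 of 23255 (0%). PBS against untreated retina called 0 genes, and uninjected OIR against untreated retina called 115 (0.495%).

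The 4 lists of immune genes had medians of -0.16 to -0.04. Microglia and macrophage genes had a median of -0.06, with 12 of 18 tested genes negative. Of the 18, 2 were lower and 0 higher at an unadjusted p under 0.05, against 2.53% and 1.75% of all genes. Cd68, a lysosomal marker of phagocytes, was at 6.52 and 6.63 with PBS and 7.40 and 6.79 in uninjected OIR (-0.52 ± 0.21), and Fcrls, a microglial receptor gene, differed by -0.48 ± 0.16. Cx3cr1 and Csf1r, receptors that define microglia, differed by 0.19 ± 0.16 and 0.12 ± 0.12. Inflammatory cytokine genes had a median of -0.09, with 11 of the 13 tested (of 20) negative. In this list 3 were lower and 0 higher at an unadjusted p under 0.05, against 2.53% and 1.75% of all genes. Of these 13, 8 lay below the negative control median on all 4 arrays, among them Cxcl1 (-0.30 ± 0.12) and Cxcl2 (-0.34 ± 0.08). Ccl2, a monocyte chemokine, was at 5.38 and 5.44 with PBS and 5.90 and 5.64 in uninjected OIR. Complement genes had a median of -0.16, with 9 of 12 tested genes negative. Of the 12, 2 were lower and 0 higher at an unadjusted p under 0.05, against 2.53% and 1.75% of all genes. With 1 array left out the median ran from -0.30 to -0.04. Serping1, the C1 inhibitor, was at -0.58 ± 0.24, or -0.97 to -0.18 with 1 array left out. Of the 11 neutrophil and lymphocyte genes tested, 8 were negative, and 10 lay below the negative control median on all 4 arrays, so their differences are no exact sizes.

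Interferon response genes had a median of 0.14 over 19 tested genes, with 12 positive. At an unadjusted p under 0.05, 1 was higher and 1 lower, against 1.75% and 2.53% of all genes. Eif2ak2, the double-stranded RNA kinase, was at 6.86 and 6.58 with PBS, against 6.27 and 6.09 in uninjected OIR (0.54 ± 0.13, adjusted p = 0.621). Irf7, the interferon transcription factor, went the other way (-0.46 ± 0.18). Of the 19, 11 lay below the negative control medians on all 4 arrays, and the median was -0.19 with a stricter filter on dim genes. Cell cycle genes had a median of -0.08 over 23 genes. Ccnb2 was the 1 member past an unadjusted p of 0.05 (-0.40 ± 0.17), against 4.29% of all genes.

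Neurons and photoreceptors showed small medians. Rod genes had a median of 0.03 over 16 genes. Of these, 0 were past an unadjusted p of 0.05 in either direction, against 4.29% of all genes. In a list of 16 genes, 0 cannot be told from that share. Nrl, the rod transcription factor, was at 9.34 and 9.36 with PBS and 8.97 and 9.04 in uninjected OIR (0.35 ± 0.15), and Reep6 differed by -0.26 ± 0.22. Cone genes had a median of -0.14 over 14 genes, with the phototransduction genes Gnb3 at -0.44 ± 0.14 and Pde6h at 0.30 ± 0.13. Bipolar cell genes had a median of 0.02 over 14 genes, and amacrine and horizontal cell genes of -0.14 over 16.

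Of 17 retinal ganglion cell genes tested, 16 were negative, against 47.5% of all genes. Past an unadjusted p of 0.05 there were 0, against 4.29% of all genes. The list had a median of -0.28. The value rests on PBS array 1, where the list averaged 7.43, against 8.02 on PBS array 2 and 8.16 and 7.93 on the uninjected OIR arrays. Without PBS array 1 the median was -0.02, and without PBS array 2 it was -0.47. Nefl, a neurofilament gene of large axons, was at 8.87 and 9.86 with PBS and 10.11 and 9.81 in uninjected OIR. Slc17a6, the glutamate transporter of ganglion cell synapses, was at 7.52 and 8.51 with PBS and 8.73 and 8.42 without injection, and Sncg, a ganglion cell synuclein, was at 7.90 and 9.36 with PBS and 10.30 and 8.70 without injection. Rbpms, an RNA-binding marker of all ganglion cells, differed by -0.52 ± 0.23, and Pou4f1, their transcription factor, by -0.62 ± 0.37.

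**Figure D5:**
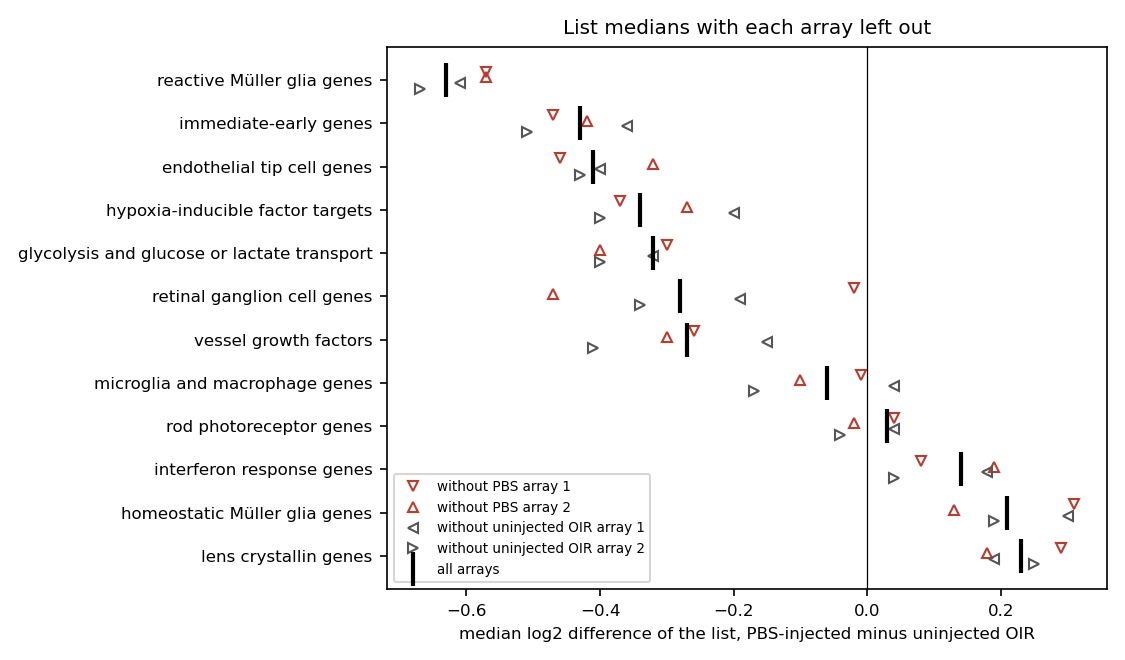
Median PBS minus uninjected OIR difference (log2, horizontal axis) of 12 gene lists with all arrays (bars) and with each of the 4 arrays left out (triangles). Reactive Müller glia genes stay between -0.67 and -0.57, while retinal ganglion cell genes run from -0.47 to -0.02.

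Markers of tissues next to the retina were set beside these results, and their part in them was not tested. Lens genes had a median of 0.23, with 19 of 20 positive, against 52.5% of all genes. Of the 20, 2 were higher and 0 lower at an unadjusted p under 0.05, against 1.75% and 2.53% of all genes. Without overlap 13 lay higher, against 20.9% of all genes. The list averaged 6.04 and 6.29 with PBS and 5.78 and 5.86 in uninjected OIR, and 9 of the 20 lay below the negative control medians on all 4 arrays. Crygb, a lens crystallin gene, was at 6.5 and 6.51 with PBS and 5.12 and 5.46 in uninjected OIR, where it lay below those medians. Cryaa, the most abundant lens chaperone, was at 7.30 and 8.34 with PBS and 6.52 and 6.87 without injection (1.12 ± 1.00). On the ISOX DUAL arrays the lens list averaged 6.39 and 7.70.

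Retinal pigment epithelium genes had a median of -0.02 over 15 genes and averaged 6.43 and 6.54 with PBS and 6.70 and 6.33 without injection. Ciliary body, cornea and conjunctiva genes had a median of 0.02 over 13 and skeletal muscle genes of 0.03 over 13. In either list 0 members were past an unadjusted p of 0.05, against 4.29% of all genes. Of the 13 in each, 8 and 10 lay below the negative control medians on all 4 arrays. An absence of these tissues therefore cannot be read from the small medians. Red blood cell genes could be followed by 4 of 12 genes, since the globin genes have no single-symbol cluster and were not analysed here. Alas2, the heme synthesis enzyme of red cells, was at 6.02 and 6.22 with PBS and 6.38 and 6.86 in uninjected OIR (-0.50 ± 0.18). The small nucleolar RNA genes had a median of 0.74, with 61 of 62 positive and 50 higher without overlap, against 52.5% and 20.9% of all genes. At an unadjusted p under 0.05, 9 were higher and 0 lower, against 1.75% and 2.53% of all genes. The median was 0.39 without PBS array 1 and 1.11 without PBS array 2. The list average also varied between arrays of a group, at 7.31 and 8.30 in untreated day 17 retina and 7.74 and 8.66 at day 7. These genes move together from array to array, so their number adds no replication.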

How the data were processed

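Total RNA of whole retina was hybridised to Affymetrix whole-transcript arrays after Trizol extraction and labelling with the WT Terminal Labeling Kit, per the labels' protocols. The authors deposited log2 values (0.78 to 13.67), 1 for each cluster on each array. Their software and normalization were not given in the sources used here. Values were used without further normalization. Of 72688 rows, 6732 are controls. Of 65956 clusters, 30604 have 1 symbol, 2146 several and 33206 none in the platform annotation. Symbols were updated against RefSeq (GRCm38.p6) through Entrez identifiers (22818) or symbols and synonyms (7784), and 2 were kept. The brightest cluster stood for each of 30063 genes (429 had several), and a gene was tested if at least 2 arrays exceeded their 30th percentile.

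limma 3.58.1 in R 4.3.3 fitted all 10 arrays in 5 groups (5 residual and 2.76 prior degrees of freedom), with Benjamini-Hochberg adjustment over 23255 genes and a threshold of 0.05. The steps were tested on simulated data. No fold is printed where both arrays of the dimmer group lay under the median of the 5222 negative controls. The number of arrays limits the precision (median SE 0.134).

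The comparison, its 28 gene lists (528 genes, 473 tested, 35 without a single-symbol cluster and 20 under the filter) and its settings were chosen with earlier results of these data known. Some genes stand in more than 1 list, among them Hmox1, Edn2, Fgf2 and Atf3, so the lists are not independent. Named genes are those of smallest p in each direction whose groups do not overlap (10 each, since none passed; predicted genes and genes below the negative controls on all 4 arrays left out), up to 3 of smallest p per list, and a set of 16: Angpt2, Apln, Esm1, Adm, Vegfa, Egln1, Egln3, Ccn1, Serpina3n, Gfap, Edn2, Spidr, Dusp16, Folh1, Hmox1 and Fn1. Stat3, Osmr, A2m, Egr1, Ndufa4l2, Epo, Mfsd2a, Cldn5, Aplnr, Il33, Spc25, Sncg, Rgs5, Dll4, Kdr, Cryaa, Thbs1, Fgf2, Cdh5, Mt1, Slc2a1, Pdk1, Ero1a, Kcnj10, Aqp4, Cx3cr1, Csf1r, Nefl and Slc17a6 were added after their values were seen. Array numbers 1 and 2 are shared by the groups, and the labels give them no meaning.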

Additional observations from a re-analysis of the deposited data

How the results depend on the processing

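The count of 0 genes past the threshold was 0 with each array left out (0 to 0), with only the 4 arrays, array weights, centring on the median, a trend, no or a stricter filter and all single-symbol clusters, while 422 to 1666 genes then had an unadjusted p under 0.05. It was 2 with quantile normalization, 2 over protein-coding genes and 2 for the mean of both injected groups (Angpt2 and Spidr each time). With the replicate block it was 5 (9330188P03Rik, Angpt2, Egln3, Hmox1 and Spidr, adjusted p = 0.0455), and with the replicate numbers of the injected groups crossed it was 4 (Angpt2, Apln and Nr4a1, adjusted p = 0.0323, and Spidr, 0.0404). The array 1 minus array 2 differences correlated over genes at -0.406 between PBS and uninjected OIR, 0.399 between PBS and ISOX DUAL, and 0.587, 0.809 and 0.583 among the uninjected groups, with -0.397 to -0.0567 for the other 5 pairs of groups, and the labels state no pairing. All called genes were lower with PBS, and the cause of the moves was not tested.

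Of 130 named genes, 2820 values kept sign and side, 14 newly passed and 8 changed sign, to values of at most 0.06 in size. With 1 array left out, S100a9 ran from -0.04 (and -0.01 without uninjected OIR array 2) to 0.23, Pcp2 from -1.33 to 0.00, Rdh5 from -0.43 to 0.03, Ckm from -0.05 to 0.23, Myh3 from -0.02 to 0.15 and Bpgm from -0.41 to 0.06, and for all but S100a9 it was uninjected OIR array 1 whose absence turned the sign. Sag was at -0.02 with quantile normalization. Of list medians, 204 moved by less than their spread and 19 by more, among them interferon genes (-0.19 with the stricter filter) and cone genes (-0.34 without uninjected OIR array 2). The stricter filter leaves no neutrophil or lymphocyte gene.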

Other observations

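A group of X-linked genes chosen after their values were seen, Xlr3a, Xlr3b and Xlr3c, had lower values in both injected groups than in every uninjected group. Whether this goes with the injection or with another difference between these mice, such as litter, was not tested. Xlr3b was at 3.93 and 4.09 with PBS and 3.54 and 3.84 with ISOX DUAL, against 6.16 and 5.87 in uninjected OIR, 5.82 and 5.28 in untreated day 17 retina and 7.12 and 5.87 at day 7. Its difference with PBS was -2.00 ± 0.37 (limma adjusted p = 0.33). Xlr3a differed by -1.12 ± 0.17 and Xlr3c by -1.50 ± 0.28, and Xlr4b of the same family by -0.50 ± 0.22. The Xlr3 genes are near-identical copies whose probes may share signal, and most of these values lie near or below the negative control medians, so the sizes are uncertain.

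The sex-linked genes Xist and Uty, also chosen after their values were seen, had overlapping values in PBS-injected and uninjected OIR. Xist, the transcript that silences an X chromosome in females, was at 4.58 and 4.39 with PBS and 4.43 and 4.56 in uninjected OIR, and the Y-linked gene Uty was at 8.73 and 8.57 with PBS and 8.70 and 8.55 in uninjected OIR. The untreated day 7 arrays held 11.83 and 11.62 for Xist and 4.03 and 4.18 for Uty.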
